A study of Mus musculus with 2 samples.

Results

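The nonreceptor tyrosine kinases Lyn, Fyn, Fgr, Src, Csk, Syk, Btk and Tec and the lipid phosphatase gene Inpp5d were followed in microglia sorted from mouse spinal cord. Their probes were those whose gene name in the scanner files equals a member's symbol, which gave 12 probes for 9 genes, of 55681 probes in all. One sample came from control mice, titled normal, and the other from mice of an atopic diathesis model, that is mice with a tendency to allergic disease, titled activated. Both were total RNA, labelled with Cy3 and hybridised to 1-colour Agilent arrays of the same slide, whose position on it and group cannot be told apart. How the model was made, the strain, age and sex of the mice, and how many animals a sample holds are not given in the sources used here. With 1 array per group there is no test and no replicate check, so every difference describes this pair of samples.

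Src family kinases such as Lyn, Fyn, Fgr and Src sit at the inner face of the plasma membrane and phosphorylate the ITAM motifs of immune receptors, a step that Csk restrains by phosphorylating their inhibitory tail tyrosine. Syk docks on phosphorylated ITAMs and passes the signal to adaptors, phospholipase C gamma and phosphoinositide 3-kinase. The lipid PIP3 then draws the Tec family kinases Btk and Tec to the membrane through their PH domains, and Inpp5d, also called SHIP1, removes that lipid. In microglia this chain serves Fc receptors, Trem2 with its adaptor Tyrobp, and C-type lectins such as Clec7a.

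The probes are 60 bases long, and their sequences show which stretch of a transcript each value reads. Those with the largest differences or bounds are given 5′ to 3′ from the scanner files, whole for Tec and for the Btk probe at transcript position 1665, and as their last 30 bases otherwise. Capitals mark AATAAA, the canonical polyadenylation signal, searched on the printed strand only. It was present in 1 of 12 member probes and in 10.1% of all probes on the array. A match is a description of the letters and not a mapped site.
Btk, position 1665: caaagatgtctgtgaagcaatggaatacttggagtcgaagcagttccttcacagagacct
Btk, position 2360: aacactttgggggagggaaaactgtaaata
Tec, position 1938: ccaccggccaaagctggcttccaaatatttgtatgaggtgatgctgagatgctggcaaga
Tec, position 2024: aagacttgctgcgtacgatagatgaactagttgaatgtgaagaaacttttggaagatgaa
Syk, position 5029: tttcagaaattattttaAATAAAgatctac
Lyn, position 3378: aagtgcgaagaatccttaaagaaatcacta
Fyn, position 2920: gagtgagcattttaagcaaaaagcagccag

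Positions are those the files give for the transcript a probe was designed on. In mm9 coordinates from the files, the Btk probes lie on the minus strand at chrX:131083955-131084014 and chrX:131076995-131077054, 6960 bases apart. The Tec probes lie on the minus strand of chromosome 5, at 73148603 to 73148662 and at 73147534 to 73147593. They are 86 bases apart in the transcript and 1069 in the genome, so they sit on either side of an intron. The Lyn probe is on chromosome 4 (3718682 to 3718741), the Fyn probe on chromosome 10 (39284572 to 39284631) and the Syk probe at position 5029 on chromosome 13 (52744088 to 52744147), all on the plus strand. The Src probe covers 932 genomic bases on chromosome 2 (157293336 to 157294267) and therefore spans a splice junction. The longest run a member probe shared with a probe of another gene was 17 bases, reached by Csk and by Btk at position 1665, and the genes that shared the longest run with a member probe were themselves no members.

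Log2 differences are atopic diathesis minus control, relative to the median of 9217 genes measured, meaning those for which at least 1 probe passed the scanner software's test of being well above background in both samples. "Higher" and "lower" mean at least 2-fold. Signals are printed as deposited, on which scale the median measured gene lay at -0.03 (log2), and folds and bounds are relative to that gene, so they differ slightly from the ratio of the printed signals. From repeated spots of single probes, the SD of a log2 difference between the arrays was 0.20, or ±0.40 as a 95% interval. This covers spot error only, with no part of the spread between animals, sorts or RNA preparations. The same SD was used at every signal, and the width was divided by the square root of a gene's number of measured probes. The share of probes well above background was 24.1% in control and 27.6% in atopic diathesis. All 11 microglia markers were measured and lay within 2-fold, with a median of -0.09 and summed signals of 83237 and 77984.

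Of the 9 members, 5 were measured on both arrays, 2 were detected in the atopic diathesis sample only and 2 on neither array. Btk and Lyn were higher, Tec was lower, and Csk and Inpp5d lay within 2-fold. Past 2-fold in either direction were 32.9% of all measured genes, 17.3% higher and 15.6% lower, so a difference of that size was common on this pair of arrays. The median of the 5 measured members was 0.07, close to the 0 of all measured genes. Scaled by the 75th percentile or the median of all probes, which moves the median measured gene to -0.50 and -0.60, the members split into 2 higher and 2 lower, Inpp5d joining Tec.

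**Figure D1:**
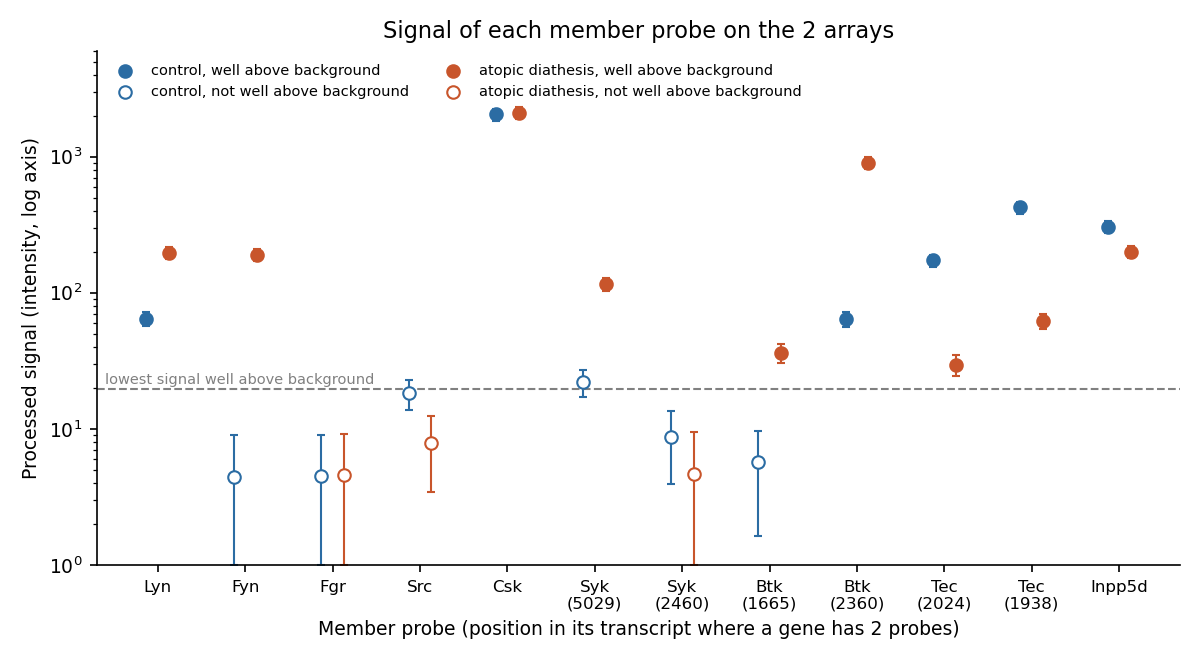
Processed signal (intensity, log axis) of the 12 member probes on the control and atopic diathesis arrays; bars are the scanner software's error estimate of 1 spot, not replicate error, and are clipped at 1. Filled points are well above background, and the dashed line marks the lowest such signal on the control array, 19.8; the Btk probe at 2360 rises from 64.3 to 902 while both Tec probes lie lower on the atopic diathesis array.

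Among the Src family kinases, Lyn was higher and Fyn appeared on 1 array only. Lyn, which acts in both activating and inhibitory receptor signalling of myeloid cells, read 64.1 ± 7.54 in control and 197 ± 20.1 in atopic diathesis (± is the scanner software's error of 1 spot). This was a log2 difference of 1.65, or 3.15-fold, with a spot interval of 1.26 to 2.05. The errors of both spots do not overlap, and 848 of the 9217 measured genes had a difference at least as high. In the same quintile of mean signal 26.5% of genes were at least 2-fold higher.

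Fyn, a Src kinase of broad expression that is also prominent in oligodendrocytes and neurons, read 4.45 ± 4.49 in control and 190.3 ± 19.6 in atopic diathesis. Only the second value was well above background, so the difference is a bound of at least 9.85-fold relative to the median measured gene, set against the lowest signal well above background on the control array, 19.8. Of 35015 gene names, 8.06% were detected like Fyn in atopic diathesis only and 4.14% in control only, and 59.2% of the former and 51.1% of the latter had a bound past 2-fold. With normexp background correction the Fyn bound was 3.21-fold.

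Markers of other cells of the nervous system were present beside Fyn. Of 6 oligodendrocyte markers 5 were detected on at least 1 array, and their signals summed to 892 in control and 948 in atopic diathesis. Cnp, a myelin enzyme, had signals of 68.2 and 216 (3.25-fold higher), and Mag was above background in atopic diathesis only, while Mbp (log2 difference 0.56) lay within 2-fold and Mog was above background on neither array. Of 6 astrocyte markers 3 were detected, with sums of 808 and 1022, and Gja1 in atopic diathesis only. Of 6 neuron markers, Snap25 (0.07) and Map2 (-0.95) were measured and 4 were on neither array. Nearly all of the neuron markers' summed signals of 82221 and 84067 came from the single Snap25 probe, at 82155 and 84015, although the samples are labelled as microglia. The part of these cells in the Fyn value was not tested. In bulk RNA, more cells of a type and more RNA per cell cannot be told apart.

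The remaining Src kinases were near background. Fgr, a Src kinase of myeloid cells, read 4.48 and 4.59, and Src itself 18.3 and 7.88. Neither was well above background on either array, where 61.2% of all gene names also lie, so no fold is given for them.

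Csk, the kinase that holds Src kinases in their inactive form, was measured at nearly the same signal in both samples. It read 2046 ± 205 in control and 2106 ± 211 in atopic diathesis microglia, a log2 difference of 0.07 with a spot interval of -0.32 to 0.47. Its sign changed to -0.43 and -0.52 under the scalings by all probes. The Lyn difference exceeded that of Csk by 1.58, a gap that no shift of a whole array can alter, and over 13 alternatives it ranged from 0.999 to 1.58. With 1 probe per gene, only quantile and loess scaling, the deposited series table and the 2 background corrections could move this gap.

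Syk, the kinase that docks on ITAMs, gave different readings at its 2 probes. The probe at position 5029 of the RefSeq transcript, whose printed end holds AATAAA, read 22.2 ± 5.02 in control, not well above background, and 115 ± 12.3 in atopic diathesis microglia. The bound, set against the control probe's own signal and relative to the median measured gene, is 5.31-fold. It is thus a plain ratio with the error of the control spot in its divisor, and not a lower limit. The bound was 2.22-fold with normexp and 1.99-fold with uncorrected signals. The other probe was designed on a cDNA accession without a RefSeq match and lies 5164 bases upstream in the genome. It read 8.74 and 4.69, above background on neither array. The files do not say which Syk transcripts each probe reads.

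Among the measured members Btk had the highest difference. This kinase, best known from B cells and also present in myeloid cells, activates phospholipase C gamma. Its probe at position 2360 read 64.3 ± 8.38 in control and 902 ± 90.4 in atopic diathesis microglia. The log2 difference was 3.84, or 14.3-fold, with a spot interval of 3.45 to 4.24, and 77 measured genes (0.835%) were at least as high. The probe at position 1665 read 5.66 ± 4.03 and 36.2 ± 5.50, above background in atopic diathesis only, with a bound of at least 1.87-fold. Both probes were thus brighter on the atopic diathesis array, the one at position 1665 with signals near the detection limit. Among genes of similar mean signal (the middle quintile) 24.4% were at least 2-fold higher.

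Markers of the other cells that carry Btk were mostly undetected. Of 5 B cell markers, Cd79a and Ms4a1 were above background on neither array, Cd79b read 5.43 and 37.0 and Pax5 20.4 and 23.7, and the summed signals were 39.9 and 79.3. Of 6 mast cell markers, Mcpt4 read 5.02 and 56.5, and Cpa3, Tpsb2, Kit, Fcer1a and Ms4a2 were above background on neither array, with sums of 42.1 and 101. None of 5 T cell, 5 neutrophil and 5 monocyte and border macrophage markers on the array was above background. Of 5 endothelial markers, Pecam1 was detected in atopic diathesis and Flt1 in control microglia only. The part of B or mast cells in the Btk value was not tested.

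Tec, the founding member of the Tec family, was lower in atopic diathesis microglia on both of its probes. At position 1938 the signal was 423 ± 42.5 in control and 61.8 ± 7.45 in atopic diathesis, a log2 difference of -2.74. At position 2024 it was 173 ± 17.8 and 29.7 ± 5.10, a log2 difference of -2.51. The gene value, the mean of both probes, was -2.63, or 6.17-fold lower, with a spot interval of -2.91 to -2.35. That interval does not use the scanner software's own error, which was 5.10 for the signal of 29.7. At least as low were 248 measured genes. In its quintile of mean signal 19.6% of genes were at least 2-fold lower. The probes share no sequence and differed by 0.23, where the median gap was 0.62 over 1126 genes with exactly 2 measured probes. Of those genes 104 had both probes at least 2-fold lower and 36 had probes on opposite sides of the 2-fold limits. With normexp the Tec value was -1.63 and with uncorrected signals -1.49.

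The 2 Tec family kinases thus lay on opposite sides of the median gene. The gap between them was 6.47 on the log2 scale with a spot half-width of 0.48, and 4.11 to 6.60 over the 13 alternatives. The other gaps of Btk were 2.19 over Lyn and 4.42 over Inpp5d.

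Inpp5d, which counteracts Btk and Tec recruitment by removing the lipid they bind, read 306 ± 30.9 in control and 200.4 ± 20.5 in atopic diathesis microglia. Its log2 difference was -0.58, or 1.49-fold lower, with a spot interval of -0.97 to -0.18, and 24.8% of measured genes were at least as low. It passed 2-fold only under the scalings by all probes (-1.08 and -1.18).

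**Figure D2:**
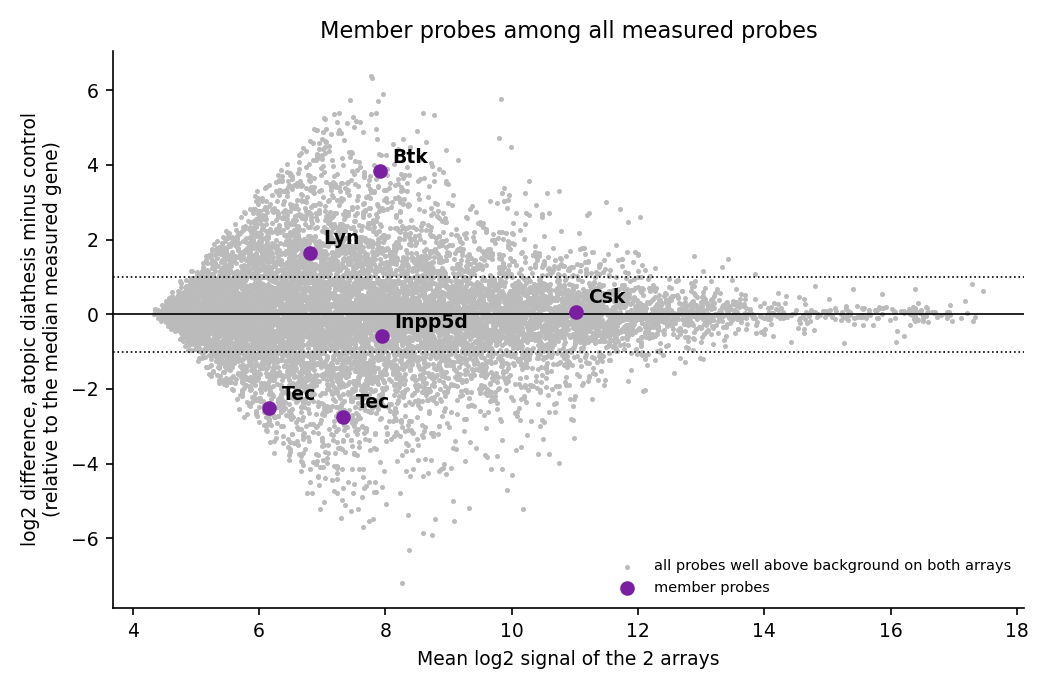
Log2 difference (atopic diathesis minus control, relative to the median measured gene) against mean log2 signal for all probes well above background on both arrays (grey) and the member probes (purple); dotted lines mark 2-fold. The member probes past 2-fold are Btk (3.84), Lyn (1.65) and those of Tec (-2.74 and -2.51). By gene, 46.1% and 46.6% were past 2-fold in quintiles 2 and 3 of mean signal, which hold these genes. In the lowest quintile 20.1% were past 2-fold, and in the highest 15.2%.

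**Figure D3:**
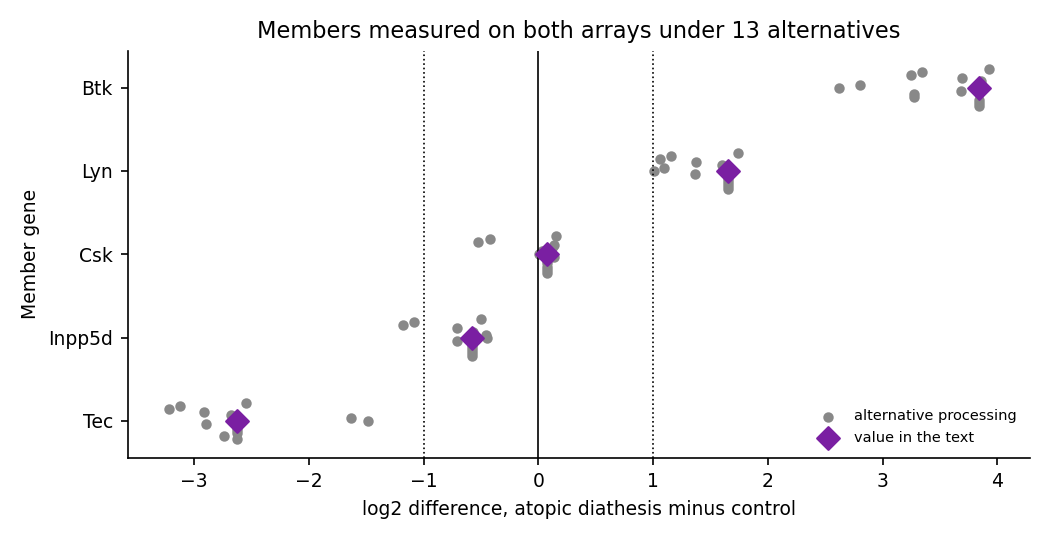
Log2 difference of the 5 members measured on both arrays, as given in the text (diamonds) and under 13 alternative ways of processing (grey points); dotted lines mark 2-fold. Btk ranges from 2.62 to 3.92, Lyn from 1.01 to 1.74 and Tec from -3.22 to -1.49, each on its own side of 2-fold throughout, while Inpp5d crosses the lower line under 2 scalings.

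The other genes of the pathway were taken from 7 lists by role, 100 genes in all. Of these 60 were measured, 11 higher, 7 lower and 42 within 2-fold, that is 30% past 2-fold beside 32.9% of all measured genes. Their median was -0.04. Under either scaling by all probes the split was 6 higher to 14 lower, and all measured genes moved alike, from 1596 higher and 1436 lower to 989 and 2503 with the 75th percentile and to 904 and 2828 with the median. Of the 18 genes past 2-fold, 8 were so in the same direction under all 13 alternatives, among them Clec7a, Siglece, Ptpra, Ubash3b, Plcg1, Gtf2i and Pdpk1, and Fcgr1 under 7. In addition, 7 of the 100 were detected in atopic diathesis only and 6 in control only, beside 8.06% and 4.14% of all gene names. In Lcp2, the adaptor SLP-76, each of 2 probes was detected on a different array.

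Other kinases of the same families were near background or within 2-fold. Of 10 genes 2 were measured, with a median of -0.18, and Matk, a relative of Csk, read 215 and 169 (log2 difference -0.32). Yes1 read 6.21 and 23.7, with a bound of only 1.23-fold. The lymphoid kinases Lck, Blk, Zap70 and Txk, and Frk and Bmx, were above background on neither array, like 61.2% of all gene names.

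Receptors that feed the kinases mostly lay within 2-fold, as did most measured genes. Of 9 measured activating receptors and adaptors 1 was higher and 2 lower, with a median of -0.13. That is 33.3% past 2-fold, beside 32.9% of all measured genes and 15.2% of those in the brightest quintile of mean signal. The IgG receptor Fcgr4 read 3256 and 7571, whereas Clec7a read 219 and 51.5 (4.15-fold lower) and Fcgr1 851 and 411 (2.02-fold lower). The ITAM adaptors Tyrobp (-0.13) and Fcer1g (0.72) and the integrin chain Itgam (-0.14) were within 2-fold. Of 7 measured inhibitory receptors only Siglece (14.3%), a sialic acid receptor, was past 2-fold, at 2548 and 654 (3.81-fold lower). The phagocyte checkpoint receptor Sirpa lay at -0.09. Pirb and Lilrb4a, receptors with ITIM motifs, were detected in atopic diathesis only, by at least 3.59- and 2.31-fold. With uncorrected signals these bounds were 1.43- and 1.20-fold.

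Phosphatases and ubiquitin ligases that act on these kinases lay on both sides, with 2 higher and 3 lower of 10 measured. That is 50% past 2-fold, beside 32.9% of all measured genes. The SH2 domain phosphatases Ptpn11 (SHP2; 186 and 62.4, 2.91-fold) and Ptpn6 (SHP1; 851 and 386, 2.15-fold) were lower, as was the receptor phosphatase Ptpra (319 and 109, 2.87-fold), which removes the inhibitory phosphate from Src kinases. With normexp or uncorrected signals Ptpra alone of these stayed lower. The related phosphatase Ptpre was 2.36-fold higher (441 and 1017). Ubash3b, a phosphatase that acts on Syk, was 5.19-fold higher over probes that disagreed in size, with log2 differences of 4.15 and 0.60. The ubiquitin ligase genes Cblb (263 and 11.8) and Cbl (62.9 and 4.41) were above background in control microglia only, at least 12.9- and 3.09-fold lower (3.15- and 1.39-fold with uncorrected signals). A second Cblb probe was above background on neither array. Pag1, the membrane anchor of Csk, was above background in atopic diathesis only, at least 6.71-fold higher (9.96 and 129.7). Ptprc, which encodes CD45, lay at 0.45.

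Of 18 measured adaptors and substrates of Syk and Btk, 14 were within 2-fold, 3 higher and 1 lower. That is 22.2% past 2-fold, beside 32.9% of all measured genes. Gtf2i, a transcription factor that Btk phosphorylates, read 23.2 and 273, a log2 difference of 3.585, and its second probe was detected in atopic diathesis only. Dapp1, a PH domain adaptor, was 5.13-fold higher, with log2 differences of 3.98 and 0.74 at its probes. Nfatc1 was 2.38-fold higher through 1 probe (2.38 and 0.13 on the log2 scale). Plcg1 was 2.32-fold lower (1064 and 448), and Plcg2, the phospholipase C that Btk activates in haematopoietic cells, lay at -0.74. The adaptors Blnk (0.26), Vav1 (0.26), Grb2 (-0.12) and Lat2 (-0.25) were within 2-fold. Sos1, a Ras exchange factor, and Ibtk, an inhibitor of Btk, were above background in atopic diathesis only, by at least 2.57- and 3.25-fold. With uncorrected signals these bounds were 1.265- and 1.475-fold.

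Of 10 measured phosphoinositide kinase and phosphatase genes 5 were higher and none lower, with a median of 0.95. Of all measured genes 17.3% were higher and 15.6% lower, and in the quintile of mean signal with most higher genes 26.5% were higher. Under the scalings by all probes 3 of the 10 were higher and Akt1 was lower, and with uncorrected signals 2 of the 10 were higher. Pdpk1, the kinase that activates Akt, was 6.54-fold higher, with log2 differences of 3.05 and 2.36 at its measured probes and another probe above background on neither array. Pik3ap1, an adaptor of phosphoinositide 3-kinase, read 32.4 and 132 (4.16-fold). Inppl1, the close relative of Inpp5d called SHIP2, read 34.4 and 92.1 (2.74-fold), and the regulatory subunit Pik3r5 62.7 and 168 (2.74-fold). At the measured probes of these genes the control signals lay between 32.4 and 75.3. Inpp4b, which acts on the product of Inpp5d, was detected in control only on both of its probes, at least 8.84-fold lower. Pik3cb was at least 2.55-fold higher (1.32-fold with uncorrected signals), and Akt2 lay at -0.13.

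None of the 4 measured adhesion and actin substrates of Src kinases was past 2-fold, beside 32.9% of all measured genes. Ptk2b lay at 0.03, Rac2 at 0.16, Rac1 at 0.44 and Wipf1 at 0.51. The other 7 genes, among them Ptk2 and Pxn, were above background on neither array, like 61.2% of all gene names.

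**Figure D4:**
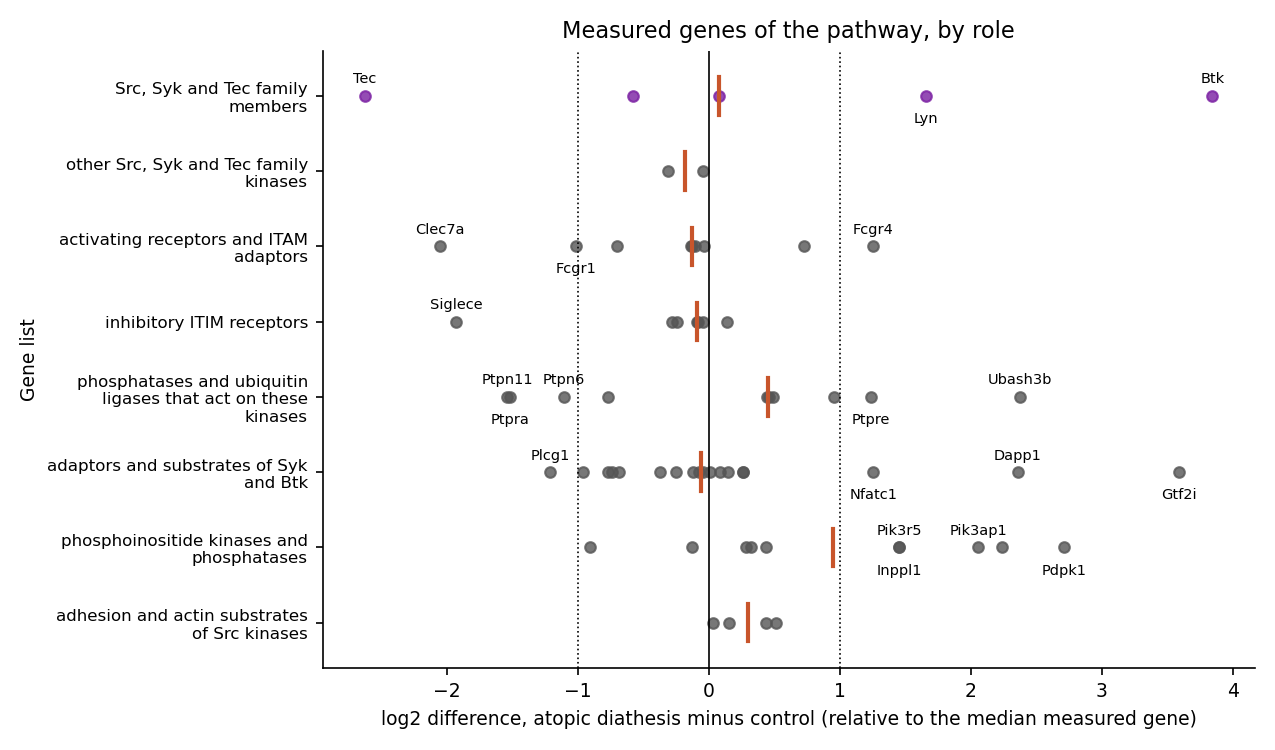
Log2 difference (atopic diathesis minus control) of every measured member and pathway gene, by list; points are genes, vertical bars are list medians, dotted lines mark 2-fold, and most genes past 2-fold are named. The members range from -2.63 (Tec) to 3.84 (Btk), and the phosphoinositide list holds 5 genes above and none below the 2-fold lines. Of all measured genes, 17.3% were higher and 15.6% lower.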

How the data were processed

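Each deposited scanner file lists the spots of 1 array with their linear intensity, from which the authors had background subtracted by Agilent Feature Extraction, version 10.7.1.1 per the file headers and 9.5.1.1 per the submitters' processing notes. The deposited series table, used as an alternative, holds 1 normalized intensity per probe, median 6.64 in each column, with the scale linear and the method not given in the sources used here.

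Control spots and outlier spots were left out, processed signals were taken to log2, and spots of a probe were averaged. Differences were centred on the median measured gene, because under 28% of probes were above background. A gene's value is the mean over probes well above background on both arrays. Where all detected probes of a gene were detected in the same single sample, a bound was computed at the brightest one, its signal divided by a floor in the other sample and shifted, like every fold, so that the median measured gene lies at 0 (log2). The floor was the lowest signal there that passed as well above background (19.8 in control, 19.9 in atopic diathesis) or, if greater, the signal of the same probe. All values are single spots for the members, no spot was saturated, and the number of arrays limits the precision.

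Members by symbol numbered 12 probes, of which 11 matched a RefSeq transcript of GRCm38.p6, used for names only, as for 27235 of 55681 probes. Named besides all members were, from each list, the genes past 2-fold (the 4 largest where over 5), the bounds past 2-fold and the brightest gene. Other well-known list genes were named after their values were seen. A few genes of the lists go unnamed and are not reported here singly, but they count in each list's totals and median. The members and lists were chosen with earlier results of these data known. Values used Python 3.11.15, R 4.3.3 and limma 3.58.1 (normexp with an offset of 50, quantile, loess with a span of 0.4). The calculation was tested on simulated data. Alternatives were 5 scalings, 2 background corrections, the series table, 2 filters, kept outliers and 2 rules for probes.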

Additional observations from a re-analysis of the deposited data

How the results depend on the processing

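Over 13 alternatives, Btk and Lyn stayed at least 2-fold higher and Tec at least 2-fold lower, and no difference past 2-fold changed sign among members and pathway genes. The alternatives are not 13 separate checks. For Lyn, as for any measured gene with 1 probe, the filters and the rules for probes return the value in the text (1.65) by construction. The series table nearly repeats quantile scaling, with 1.37 and 1.38 for Lyn. The Fyn bound was 2.70 to 10.4 and the Syk bound 1.99 to 5.62 over 5 alternatives. Of the pathway bounds past 2-fold, those of Pirb, Ibtk and Cbl were under 2-fold in 2 of these 5 and those of Lilrb4a, Sos1 and Pik3cb in 4. Lower members numbered 2 under the 75th percentile of all probes, 2 under the median of all probes and 2 with no background filter, against 1. Higher members numbered 4 with detection on either array enough, against 2. Fyn and Syk were added, which pass that filter only through the array where they are high. Higher pathway genes, 11 in the text, numbered 6 under either scaling by all probes, 7 with uncorrected signals, 19 with detection on either array enough and 24 with no filter. Lower pathway genes, 7 in the text, numbered 14 under either scaling by all probes, 4 with normexp, 4 with uncorrected signals, 13 with detection on either array enough and 15 with no filter. Over all genes, 1596 higher and 1436 lower became 900 and 882 with uncorrected signals, 1008 and 965 with normexp, 4297 and 2573 with detection on either array enough and 6047 and 2839 with no filter. The looser filters test more genes, and for the other settings the cause was not tested. No paired analysis was possible because each group holds 1 array, and for the same reason no array could be left out. Low signal limits the values of Fgr, Src, Syk, Fyn and the Btk probe at position 1665. On their dimmer array Lyn read 64.1, Btk at position 2360 64.3 and Tec at position 2024 29.7. With uncorrected signals the differences of Lyn, Btk and Tec shrank to 1.01, 2.62 and -1.49.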
